A study of Mus musculus with 27 samples.

Results

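Plasma cells are the antibody-secreting cells of the gut wall. Here 10 genes of plasma cells and of epithelial IgA transport were followed in the ileal epithelium of TCDD-treated mice. They are the J chain gene *Jchain*, the immunoglobulin constant regions *Igha*, *Ighm* and *Igkc*, the plasma cell genes *Mzb1*, *Tnfrsf17*, *Prdm1*, *Irf4* and *Sdc1*, and the polymeric immunoglobulin receptor gene *Pigr*. Each was found by its Ensembl mouse gene identifier, giving 10 of the 46078 genes in the count tables. The genes were chosen by function with their levels and fold changes against vehicle in these same libraries known from earlier results, so those values are given as a description with no p-value of their own. How many of them passed the test run over all genes is counted beside the share of all genes that passed. P-values are printed only for genes outside these 10 and for relations that the choice did not use. The lists of other genes were also chosen with earlier results of these data known. Some of their genes were named because they passed at the highest dose. The p-values of the other genes are therefore not free of that choice and are given as a description.

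RNA-Seq was performed on scrapings of the distal ileum lining of 27 male C57BL/6 mice (3 in each group) at postnatal day 56. The groups received sesame oil vehicle or TCDD at 0.01 or 0.03, 0.1 or 0.3, 1 or 3, and 10 or 30 µg/kg, by oral gavage every 4 d over 28 d, and all mice were fasted for 6 h before collection. TCDD (2,3,7,8-tetrachlorodibenzo-*p*-dioxin) is a persistent ligand of the aryl hydrocarbon receptor (AhR), a transcription factor. The 3 mice sequenced per group came from 8 treated, co-housed 4 per cage, and their cages were not given in the labels.

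Mature IgA-secreting plasma cells lie in the lamina propria beneath the epithelium, so a scraping holds their RNA together with that of enterocytes. They join IgA heavy chains to kappa or lambda light chains, and the J chain links IgA into dimers and IgM into pentamers. PIGR on the basolateral side of enterocytes binds J chain-containing antibody and carries it into the lumen, where its cleaved part stays attached as secretory component. In such bulk RNA, fewer cells of a type and less RNA per cell cannot be told apart.

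Each library held 12.26 to 17.14 M gene counts, with a median of 14.14 M. The index sequences in the library names were used once in 16 mice (vehicle to 0.3 µg/kg, and mouse 41 at 1 µg/kg) and again in the other 11 (mice 43 and 44 at 1 µg/kg and all mice at 3 to 30 µg/kg). Index use and dose therefore cannot be told apart in comparisons of 3, 10 or 30 µg/kg with vehicle, while 10 and 30 µg/kg can be compared with 3 µg/kg inside the second use. *Cyp1a1*, the classical AhR target, had 0 to 3 counts per vehicle mouse and 14821 to 27996 counts per mouse at 30 µg/kg.

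Each gene was located in GRCm38. *Jchain* (ENSMUSG00000067149) lies at chr5:88519809-88527891 on the minus strand. The heavy chain constant regions *Igha* (ENSMUSG00000095079) at chr12:113254830-113260236 and *Ighm* (ENSMUSG00000076617) at chr12:113418558-113422730 share the immunoglobulin heavy chain locus on the minus strand, and *Igkc* (ENSMUSG00000076609), the kappa constant region, lies at chr6:70726435-70726966 on the plus strand. *Prdm1* (ENSMUSG00000038151, chr10:44437177-44528501) is on the minus strand, and *Mzb1* is ENSMUSG00000024353. *Tnfrsf17* (ENSMUSG00000022496, chr16:11313812-11320074), *Irf4* (ENSMUSG00000021356, chr13:30749226-30766976), *Sdc1* (ENSMUSG00000020592, chr12:8771323-8793715) and *Pigr* (ENSMUSG00000026417, chr1:130826684-130852249) are on plus strands.

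Promoter sequence (RefSeq, GRCm38.p6, 250 bases before to 50 after the annotated start) was read for 6 of the members, and 4 are shown because they span the responses described below, from the J chain and a pair of plasma cell regulators to the epithelial receptor. Capitals mark the letters GCGTG, the core of the dioxin response element bound by AhR, or its reverse complement CACGC, and each run is printed 5′ to 3′ along the strand of its gene. *Jchain* is from chr5:88527848-88528147 (minus), *Prdm1* from chr10:44458699-44458998 (minus), *Irf4* from chr13:30748983-30749282 (plus) and *Pigr* from chr1:130826434-130826733 (plus). The *Prdm1* window lies inside the gene's GENCODE span given above, since the start used in the promoter table is not the outermost start of that span.
*Jchain*: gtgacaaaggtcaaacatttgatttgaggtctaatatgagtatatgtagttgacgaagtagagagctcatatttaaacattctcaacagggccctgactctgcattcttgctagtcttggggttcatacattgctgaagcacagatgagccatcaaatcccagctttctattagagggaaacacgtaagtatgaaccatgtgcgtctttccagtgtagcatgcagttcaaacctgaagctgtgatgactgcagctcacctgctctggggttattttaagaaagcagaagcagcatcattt
*Prdm1*: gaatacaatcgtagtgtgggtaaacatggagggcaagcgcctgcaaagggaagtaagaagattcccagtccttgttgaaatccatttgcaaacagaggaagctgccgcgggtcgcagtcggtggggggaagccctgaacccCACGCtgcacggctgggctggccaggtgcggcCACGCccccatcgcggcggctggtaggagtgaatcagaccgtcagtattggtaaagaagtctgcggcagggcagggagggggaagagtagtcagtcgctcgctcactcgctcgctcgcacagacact
*Irf4*: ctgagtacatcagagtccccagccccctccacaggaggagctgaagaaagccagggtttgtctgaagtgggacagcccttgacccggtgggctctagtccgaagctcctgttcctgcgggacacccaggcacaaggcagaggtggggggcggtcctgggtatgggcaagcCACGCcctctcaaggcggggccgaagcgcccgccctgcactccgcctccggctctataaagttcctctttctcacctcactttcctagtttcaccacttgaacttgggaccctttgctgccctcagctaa
*Pigr*: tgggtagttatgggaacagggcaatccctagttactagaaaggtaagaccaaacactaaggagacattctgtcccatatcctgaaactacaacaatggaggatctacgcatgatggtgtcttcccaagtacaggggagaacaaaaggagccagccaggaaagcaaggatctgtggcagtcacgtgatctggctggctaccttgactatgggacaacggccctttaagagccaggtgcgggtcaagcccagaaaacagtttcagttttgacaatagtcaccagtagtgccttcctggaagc
The core was present 2 times in the *Prdm1* window and 1 time each in those of *Irf4* and *Sdc1*, and was not found in those of *Jchain*, *Pigr* and *Tnfrsf17*. On either strand it occurs in 32.4% of all 32851 promoters of this length. The TATA letters TATAAA were found 1 time each in the windows of *Irf4* and *Tnfrsf17* (13.6% of all promoters), and the octamer letters ATGCAAAT in none of the 6 (1.74%). These are matches of letters in the windows searched and were not tested as binding sites.

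Vehicle mice gave the starting point for the levels of the 10 genes, compared here as reads per kilobase of exon and M gene reads (RPKM). *Pigr* was highest at 1053 ± 94.0 RPKM (SD, n = 3), followed by *Igkc* at 877 ± 141 and *Igha* at 499 ± 78.6. *Jchain* stood at 98.9 ± 27.6, *Sdc1* at 39.8 ± 2.60 and *Ighm* at 16.5 ± 9.21. The transcription factor genes and other plasma cell genes were far lower, with *Prdm1* at 6.60 ± 1.48, *Mzb1* at 3.71 ± 0.663, *Irf4* at 2.15 ± 0.850 and *Tnfrsf17* at 0.610 ± 0.0183 RPKM. *Tnfrsf17* had 0 to 10 counts per mouse and did not pass the filter on low counts, so 9 of the 10 members entered the fit. At 30 µg/kg the order of mean RPKM was the same except that *Sdc1* (44.5 ± 4.37) stood above *Jchain* (32.4 ± 14.0).

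The antibody chain genes were lowest at the highest doses. *Jchain* encodes the polypeptide that joins IgA into dimers, and its levels in the vehicle mice were 329, 213 and 205 counts per M gene reads (CPM). The 0.01 µg/kg mice had 192, 324 and 289 CPM, the 0.03 µg/kg mice 238, 279 and 195, the 0.1 µg/kg mice 150, 276 and 256, and the 0.3 µg/kg mice 252, 205 and 153. These 15 mice overlapped in every pairing of groups. Values were then 239, 86.3 and 146 CPM (1 µg/kg), 170, 195 and 181 CPM (3 µg/kg), 103, 131 and 86.2 CPM (10 µg/kg), and 97.6, 41.2 and 106 CPM (30 µg/kg). Every mouse at 3, 10 and 30 µg/kg lay below every vehicle mouse, and every mouse at 10 and 30 µg/kg below every mouse at 3 µg/kg. The group means in descending order were those of 0.01 µg/kg (268 ± 68.8 CPM), vehicle (249 ± 69.6), 0.03 (237 ± 41.9), 0.1 (227 ± 68.2), 0.3 (204 ± 49.5), 3 (182 ± 12.8), 1 (157 ± 76.7), 10 (107 ± 22.3) and 30 µg/kg (81.6 ± 35.2), and the mice of each group overlapped with those of its neighbours in this order. *Jchain* was 2.33-fold lower at 10 µg/kg (log2 fold change -1.22 ± 0.33, SE) and 3.05-fold lower at 30 µg/kg (-1.61 ± 0.34) than in vehicle.

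*Igha*, the constant region of the IgA heavy chain, had 1567, 1260 and 1166 CPM in vehicle mice. The 12 mice at 0.01 to 0.3 µg/kg ranged from 907 to 1651 CPM, and those given 1 µg/kg showed 1215, 478 and 867 CPM. Levels of 995, 971 and 894 CPM (3 µg/kg), 629, 708 and 490 CPM (10 µg/kg), and 573, 262 and 605 CPM (30 µg/kg) followed. The groups at 3, 10 and 30 µg/kg did not overlap with vehicle, nor did 10 or 30 µg/kg with 3 µg/kg. *Igha* was 2.18-fold lower than vehicle at 10 µg/kg (log2 -1.13 ± 0.30, SE) and 2.77-fold lower at 30 µg/kg (-1.47 ± 0.30).

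*Igkc*, which encodes the constant part of kappa light chains of every antibody class, had 550, 446 and 405 CPM in vehicle mice and ranged from 278 to 581 CPM over 0.01 to 0.3 µg/kg. Higher doses gave 481, 208 and 322 CPM (1 µg/kg), 336, 391 and 366 CPM (3 µg/kg), 185, 242 and 152 CPM (10 µg/kg), and 178, 86.7 and 223 CPM (30 µg/kg). The same separation was seen, with all mice at 10 and 30 µg/kg below those at 3 µg/kg and all mice at 3 µg/kg below vehicle. *Igkc* was 2.42-fold lower at 10 µg/kg (log2 -1.27 ± 0.31, SE) and 2.87-fold lower at 30 µg/kg (-1.52 ± 0.31).

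**Figure D1:**
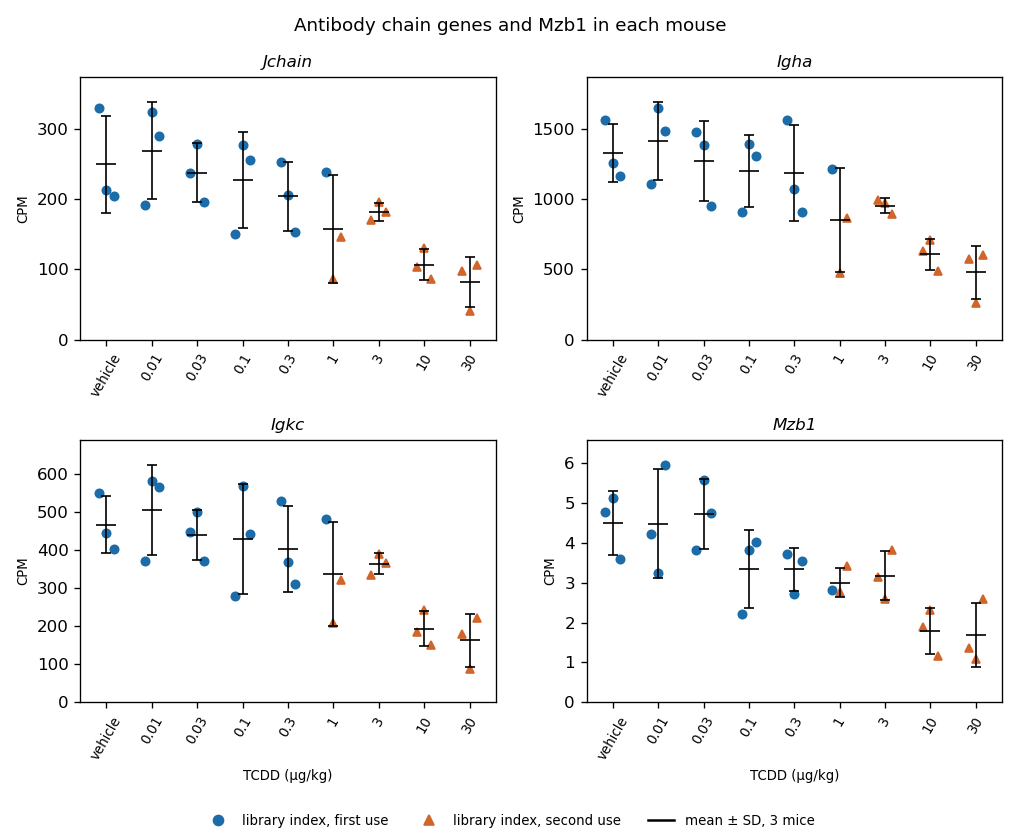
Levels of *Jchain*, *Igha*, *Igkc* and *Mzb1* (CPM, vertical axes) in each of 27 mice by TCDD dose (horizontal axes), with the mean ± SD of 3 mice as bars; circles are libraries of the first index use and triangles of the second. All mice at 10 and 30 µg/kg lie below all vehicle mice in the 4 panels, and mouse 43 at 1 µg/kg (86.3 CPM of *Jchain*) lies far below mouse 41 of the same dose (239 CPM).

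The proportions of the 3 transcripts varied less from mouse to mouse than their levels. There were 4.76 to 6.35 *Igha* reads per *Jchain* read over the 27 mice, with 5.46 ± 0.614 in vehicle and 5.97 ± 0.333 at 30 µg/kg (SD, n = 3). *Igkc* reads per *Jchain* read ranged from 1.67 to 2.42, with 1.91 ± 0.219 in vehicle and 2.01 ± 0.159 at 30 µg/kg. *Igha* reads per *Igkc* read ranged from 2.295 to 3.391, with 2.85 ± 0.0281 in vehicle and 2.98 ± 0.250 at 30 µg/kg. The vehicle mice had ratios of 2.827 to 2.883, and the mice at 0.3 µg/kg (2.907 to 2.964) and 10 µg/kg (2.924 to 3.391) lay above them. Those at 1 µg/kg (2.295 to 2.692) lay below the vehicle mice and below those at 10 µg/kg. As a description over 27 mice that share doses and index uses, Spearman's rho of log2 CPM was 0.966 between *Jchain* and *Igha*, 0.976 between *Jchain* and *Igkc* and 0.965 between *Igha* and *Igkc*.

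*Ighm*, the IgM heavy chain constant region expressed by naive B cells as well as IgM plasma cells, did not follow them. Vehicle mice had 35.2, 46.2 and 12.2 CPM, against 24.7, 26.7 and 64.7 CPM (3 µg/kg), 16.0, 64.5 and 23.3 CPM (10 µg/kg), and 20.8, 39.9 and 36.3 CPM (30 µg/kg). Every dose group overlapped with vehicle, and the log2 fold change at 30 µg/kg was 0.05 ± 0.49 (SE). Its rho with *Jchain* was 0.10 and with *Igha* 0.029.

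The make-up of the heavy chains was compared per length of exon, also as a description. *Igha* made up 92.2% ± 4.22 of heavy chain constant region transcripts in vehicle mice and 84.2% ± 9.42 at 30 µg/kg (SD, n = 3), with overlapping values of 87.9 to 96.4% and 73.6 to 91.7%. *Ighm* made up 2.97% ± 1.57 in vehicle (1.42 to 4.56%) and 9.33% ± 5.83 at 30 µg/kg (4.72 to 15.9%), without overlap. Its mean share at the other doses ran from 3.85% at 0.3 µg/kg to 8.49% at 1 µg/kg (4.18 to 13.1%). Each of those groups overlapped with vehicle. The value of 15.9% belonged to mouse 67, the mouse with the least *Igha* in the study. *Igkc* made up 90.9% ± 1.54 of light chain constant region transcripts in vehicle and 90.8% ± 3.26 at 30 µg/kg, the rest being lambda.

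Reads on variable segments, which code for the antigen-binding ends of the chains, were lower alongside. The 183 heavy chain variable segments summed to 255 ± 46.3 CPM in vehicle, 160 ± 66.2 at 1 µg/kg, 182 ± 11.1 at 3 µg/kg, 108 ± 20.7 at 10 µg/kg and 92.5 ± 32.0 at 30 µg/kg, and the 160 kappa segments to 212 ± 40.8, 154 ± 86.5, 157 ± 19.8, 87.6 ± 24.7 and 71.3 ± 30.9 CPM. Segments of a family share sequence, and reads aligned to more than 1 place were not counted, so these sums are uncertain in level.

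*Mzb1*, a chaperone-associated protein of the endoplasmic reticulum that helps marginal zone B cells and plasma cells secrete antibody, had 4.79, 5.14 and 3.60 CPM in vehicle mice (52 to 70 counts). The treated mice had 3.15, 2.59 and 3.81 CPM (3 µg/kg), 1.88, 2.31 and 1.16 CPM (10 µg/kg), and 1.36, 1.08 and 2.61 CPM (30 µg/kg, 14 to 32 counts). All mice at 10 and 30 µg/kg were below all vehicle mice, while mouse 68 at 30 µg/kg just overlapped with the lowest mouse at 3 µg/kg. The gene was 2.50-fold lower at 10 µg/kg (log2 -1.32 ± 0.31, SE) and 2.69-fold lower at 30 µg/kg (-1.43 ± 0.31).

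*Irf4* encodes a transcription factor needed for plasma cell differentiation and also used by activated T cells and some macrophages and dendritic cells. Its levels were 14.4, 11.2 and 6.09 CPM in vehicle mice, then 6.68, 8.95 and 11.6 CPM (3 µg/kg), 3.61, 8.78 and 4.78 CPM (10 µg/kg), and 6.30, 6.34 and 4.89 CPM (30 µg/kg). Vehicle mouse 4 lay inside the range at 30 µg/kg, so these groups overlapped, while all mice at 30 µg/kg were below those at 3 µg/kg. The log2 fold change was -0.87 ± 0.29 (SE) at 10 µg/kg and -0.85 ± 0.29 at 30 µg/kg (1.80-fold lower), and it was -0.56 at 30 µg/kg without vehicle mouse 2.

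*Prdm1* encodes BLIMP-1, the repressor that closes the B cell program in plasma cells, and it is also expressed outside the B lineage, including in gut epithelium. Vehicle mice had 43.9, 27.7 and 38.9 CPM, against 26.0, 24.3 and 23.8 CPM (3 µg/kg) and 22.7, 26.1 and 24.8 CPM (10 µg/kg). The 30 µg/kg values were 11.5, 37.1 and 39.1 CPM, so that mouse 65 was the lowest of all 27 and the other two were within the vehicle range. The log2 fold change from vehicle was -0.58 ± 0.27 (SE) at 3 µg/kg, -0.59 ± 0.27 at 10 µg/kg and -0.34 ± 0.27 at 30 µg/kg, and leaving out mouse 65 brought the last to 0.05.

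*Sdc1* encodes syndecan-1, also known as CD138, a surface proteoglycan used to sort plasma cells that is abundant on epithelial cells as well. Vehicle mice had 146, 163 and 146 CPM, and 30 µg/kg mice 155, 166 and 188 CPM, with overlapping groups and a log2 fold change of 0.16 ± 0.10 (SE). *Tnfrsf17* encodes BCMA, a survival receptor of plasma cells, and had 7 counts in each vehicle mouse, 3, 5 and 2 counts at 3 µg/kg, 5, 8 and 1 counts at 10 µg/kg, and 4, 0 and 6 counts at 30 µg/kg. These counts are too few for a fold change.

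*Pigr*, the epithelial IgA transporter, ranged from 3537 to 6004 CPM over the 27 mice. Vehicle mice had 4126, 4660 and 3928 CPM, against 4654, 4413 and 4018 CPM (3 µg/kg), 3895, 3868 and 3537 CPM (10 µg/kg), and 3789, 3805 and 4439 CPM (30 µg/kg). The highest value of the study was 6004 CPM in mouse 43 at 1 µg/kg, the mouse with the lowest *Jchain* of its dose. The 10 µg/kg mice lay just below the vehicle mice, and the log2 fold change was 0.26 ± 0.11 (SE) at 1 µg/kg, -0.17 ± 0.11 at 10 µg/kg and -0.08 ± 0.11 at 30 µg/kg. Per length, the ratio of *Pigr* to *Igha* transcripts was 2.14 ± 0.361 in vehicle, 4.82 ± 3.12 at 1 µg/kg (2.35 to 8.32), 3.03 ± 0.0630 at 3 µg/kg, 4.17 ± 0.584 at 10 µg/kg and 6.30 ± 2.91 at 30 µg/kg (SD, n = 3), with 9.64 in mouse 67.

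**Figure D2:**
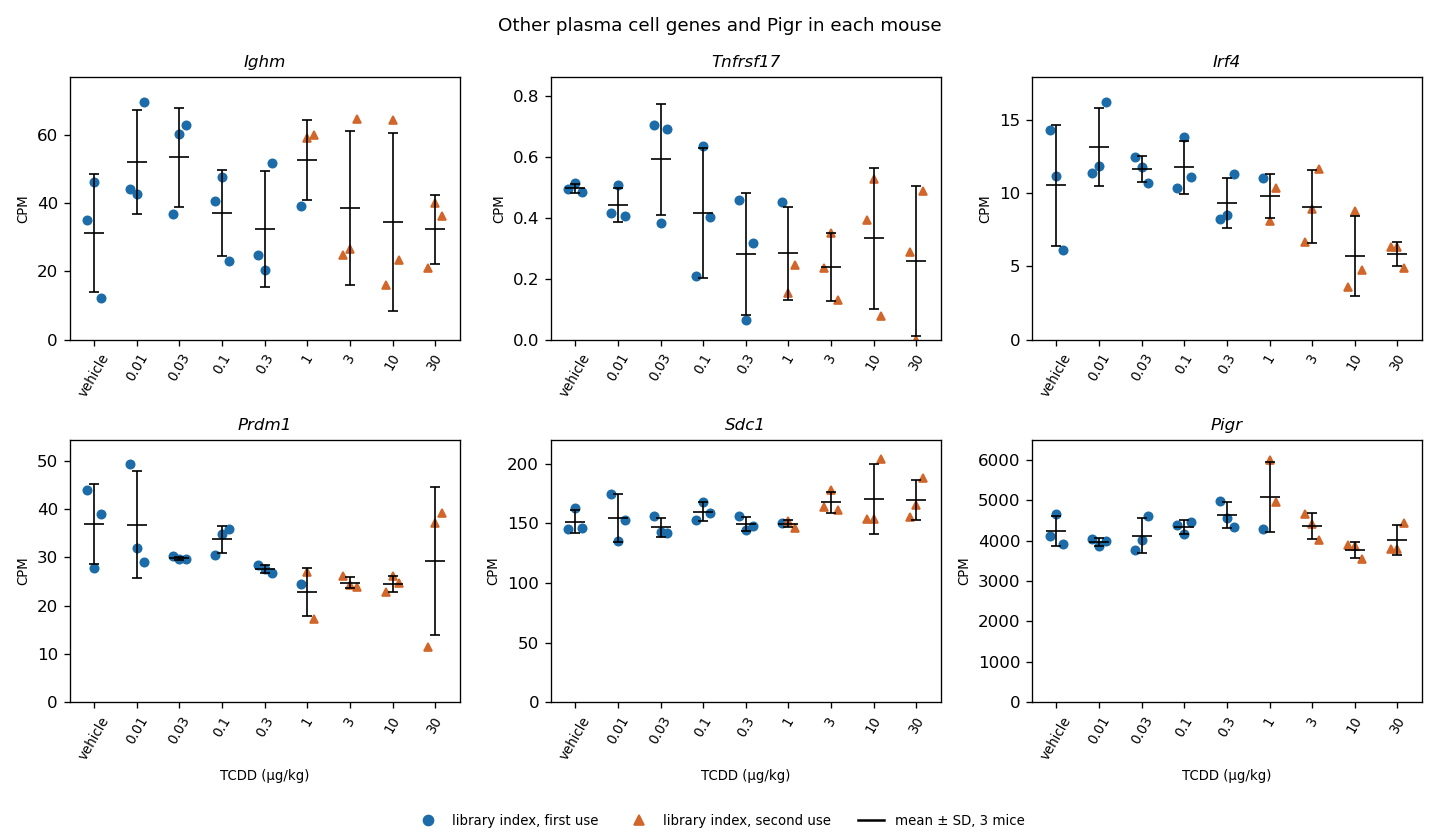
Levels of *Ighm*, *Tnfrsf17*, *Irf4*, *Prdm1*, *Sdc1* and *Pigr* (CPM, vertical axes) in each of 27 mice by TCDD dose (horizontal axes), with the mean ± SD of 3 mice as bars; circles are libraries of the first index use and triangles of the second. *Pigr* lies between 3537 and 6004 CPM (vehicle 3928 to 4660) and *Sdc1* between 135.5 and 204.1 CPM (vehicle 145.6 to 163). The *Prdm1* panel shows mouse 65 at 11.5 CPM beside 37.1 and 39.1 CPM at 30 µg/kg.

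**Figure D3:**
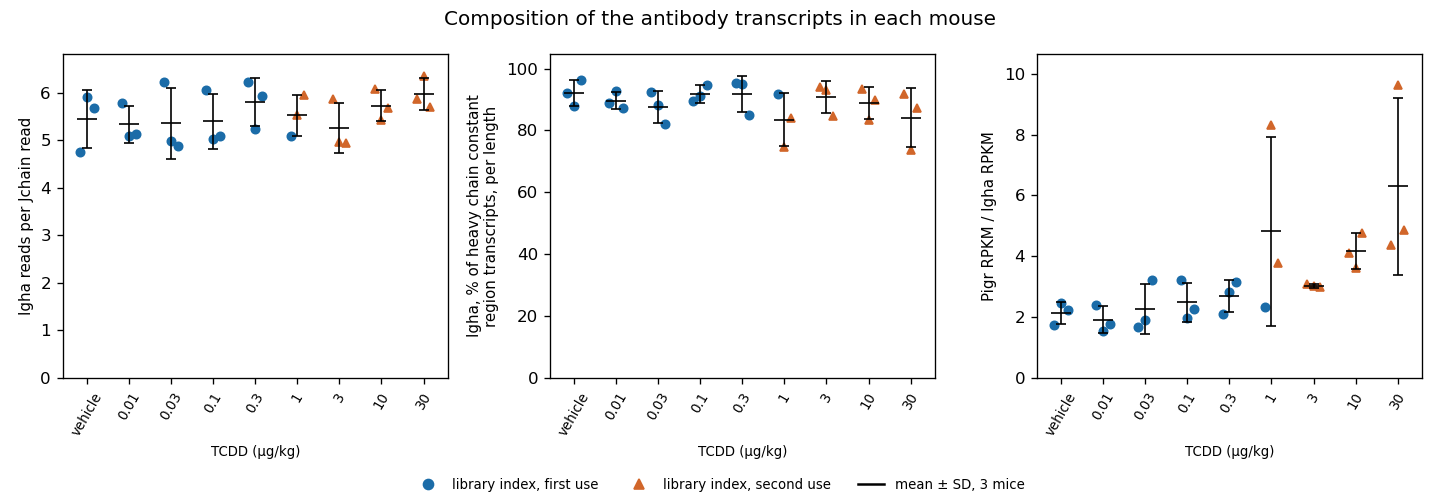
*Igha* reads per *Jchain* read (left), *Igha* as a percentage of heavy chain constant region transcripts per length (middle) and the ratio of *Pigr* to *Igha* RPKM (right) in each of 27 mice by TCDD dose, with the mean ± SD of 3 mice as bars. The left panel stays between 4.76 and 6.35 while the right panel ranges from 1.55 to 9.64.

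Genes were called at an adjusted p of at most 0.05 (edgeR quasi-likelihood test with Benjamini-Hochberg adjustment over 16741 genes) and a fold change of at least 1.5. Of the 9 members in the fit, 0 were called at 0.01, 0.03, 0.1 and 0.3 µg/kg, where the share of all genes called was 0% at each dose and 0 members had an unadjusted p under 0.05 (DESeq2 also called 0 members). At 1 and 3 µg/kg 0 members were called by either tool, beside 0.591% and 1.11% of all genes. An unadjusted p under 0.05 was found for 3 and 1 members, beside 2356 and 2289 of the 16741 genes. At 10 µg/kg 4 members were called lower (*Mzb1*, *Jchain*, *Igkc* and *Igha*) beside 2.53% of all genes, and at 30 µg/kg 5 (these and *Irf4*) beside 9.4%. The median log2 fold change of the 9 members was -0.87 at 10 µg/kg and -0.85 at 30 µg/kg, against -0.003 and 0.019 for all genes tested. Groups that did not overlap were found for 24.5% of all genes at 3 µg/kg, 23.2% at 10 µg/kg and 27.1% at 30 µg/kg against vehicle, and for 12.9% at 10 and 14.6% at 30 against 3 µg/kg, in either direction. As the members were chosen with these contrasts known, nothing is read from their counts.

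The calls at 10 µg/kg rested on single mice, with 0 members called without vehicle mouse 2 or without mouse 59, 1 without vehicle mouse 3 or mouse 57 and 5 without mouse 58. At 30 µg/kg 4 or 5 were called whichever mouse was left out, and *Irf4* was called in 2 of these 6 fits. With index use as a covariate, which only the 3 mice at 1 µg/kg inform, 0 were called at either dose. The log2 fold change with the covariate was -0.57 at 30 µg/kg, -0.18 at 10 µg/kg and 0.59 at 3 µg/kg for *Jchain*, -0.62, -0.27 and 0.37 for *Igha*, and -0.66, -0.41 and 0.50 for *Igkc*, so that at 3 µg/kg these 3 genes changed direction. For *Mzb1* it was -1.57, -1.47 and -0.64.

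Inside the second index use, the comparison with 3 µg/kg gave log2 fold changes at 30 µg/kg of -1.16 ± 0.33 for *Jchain*, -0.99 ± 0.30 for *Igha*, -1.16 ± 0.31 for *Igkc*, -0.93 ± 0.32 for *Mzb1* and -0.64 ± 0.29 for *Irf4* (SE). Those of *Ighm* (-0.27 ± 0.49), *Sdc1* (0.02 ± 0.10), *Prdm1* (0.24 ± 0.27) and *Pigr* (-0.12 ± 0.11) were smaller. At 10 µg/kg the values were -0.77 ± 0.33 for *Jchain*, -0.65 ± 0.29 for *Igha*, -0.92 ± 0.31 for *Igkc* and -0.83 ± 0.31 for *Mzb1*. By edgeR 0 members were called in either comparison, beside 0.89% of all genes called at 30 against 3 µg/kg and 0.0418% at 10 against 3 µg/kg. In each, 5 of 9 members had an unadjusted p under 0.05. Over all 16741 genes this held for 2250 at 30 against 3 µg/kg and 1090 at 10 against 3 µg/kg. DESeq2 called 3 members at 30 against 3 µg/kg and 0 at 10 against 3 µg/kg. Leaving out mouse 65 gave 4 by edgeR at 30 against 3 µg/kg. These were *Jchain*, *Igha* and *Igkc*, called lower, and *Prdm1*, called higher (log2 0.62). These comparisons share the mice at 3 µg/kg, and those with vehicle share the vehicle mice.

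**Figure D4:**
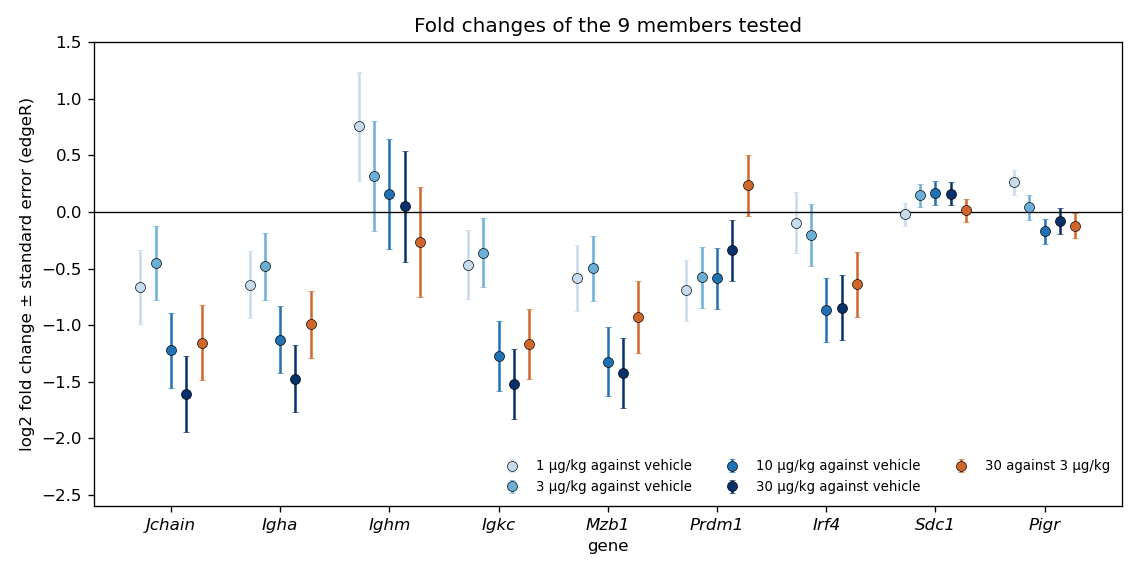
Log2 fold change ± SE (edgeR, vertical axis) of the 9 members in the fit, at 1, 3, 10 and 30 µg/kg against vehicle (blue, darker with dose) and at 30 against 3 µg/kg (orange), which lies inside the second index use. *Jchain*, *Igha*, *Igkc* and *Mzb1* lie between -1.61 and -0.93 at 30 µg/kg in both comparisons, and *Sdc1* and *Pigr* between -0.12 and 0.16.

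Other immunoglobulin constant regions, which are not among the 10 genes, were called lower at 30 µg/kg in 5 of the 8 tested, beside 9.4% of all genes. None was called higher. *Ighe* had 0 counts in the vehicle mice and at 3, 10 and 30 µg/kg and was not tested. *Ighg2b*, an IgG heavy chain, fell from 40.3 ± 23.7 CPM in vehicle to 5.71 ± 1.04 at 30 µg/kg (SD, n = 3, log2 -2.82 ± 0.49 SE, edgeR adjusted p = 0.000369), and *Ighg2c* from 19 to 80 counts per vehicle mouse to 1 to 6 counts (log2 -3.67 ± 0.64, adjusted p = 0.000404). The lambda constant regions *Iglc1* (31.4 ± 5.59 to 8.70 ± 1.04 CPM, log2 -1.85 ± 0.59, edgeR adjusted p = 0.0331) and *Iglc2* (log2 -1.17 ± 0.29, adjusted p = 0.00815) and the heavy chain *Ighg1* (log2 -1.78 ± 0.61, adjusted p = 0.0466, groups overlapping) fell as well. The median log2 fold change of the list was -1.72, and *Ighd*, the IgD constant region of naive B cells, was at 0.62 ± 0.49 (edgeR adjusted p = 0.411). At 3 and 10 µg/kg *Ighg2b* and *Ighg2c* were called. Against 3 µg/kg 0 of 8 passed at 30 µg/kg by edgeR, with 2 at an unadjusted p under 0.05, beside 2250 of all 16741 genes. IgG subclass genes and lambda regions share sequence, so their counts may be split or lost between relatives.

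Of 20 other genes of plasma cells and their secretory machinery, 1 was called lower and 1 higher at 30 µg/kg, beside 9.4% of all genes. The list median was -0.22, with 16 of 20 log2 fold changes below 0 and 9 of 20 at an unadjusted p under 0.05 (edgeR). Of all 16741 genes, 5230 had an unadjusted p under 0.05 at 30 µg/kg. *Cd38*, an ectoenzyme on plasma cells that other cells express too, fell from 626 ± 115 to 148 ± 51.5 CPM (SD, n = 3, log2 -2.08 ± 0.29 SE, edgeR adjusted p = 3.11e-05) and was also called at 1, 3 and 10 µg/kg. Its level at 3 µg/kg was 223.5 ± 32.0 CPM. At 30 against 3 µg/kg 0 of the 20 genes were called, with 3 at an unadjusted p under 0.05, beside 2250 of all 16741 genes. *Ell2*, an elongation factor that favours secreted immunoglobulin mRNA, rose by 0.77 ± 0.20 on the log2 scale (edgeR adjusted p = 0.00911), with overlapping groups of 79.2 to 84.8 and 72.9 to 199 CPM. *Xbp1*, the transcription factor that expands the endoplasmic reticulum in secretory cells, changed from 256 ± 14.9 to 198 ± 21.4 CPM, which passed the test (log2 -0.37 ± 0.10, edgeR adjusted p = 0.00968) but not the fold limit. *Pou2af1*, a B lineage coactivator, was at -0.43 ± 0.38 (edgeR adjusted p = 0.477).

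Mature B cell markers were counted because a scraping can include lymphoid follicles. Of 14 markers, 0 were called at 30 µg/kg by edgeR or DESeq2, 0 had an unadjusted p under 0.05, and the median log2 fold change was 0.20. The B cell receptor component *Cd79a* was at 0.06 ± 0.48 and *Ms4a1*, which encodes CD20, at -0.04 ± 0.50 (log2, SE; edgeR adjusted p = 0.945 and 0.969). The summed level of the list was 118 ± 61.9 CPM in vehicle (50.2 to 171) and 135 ± 33.6 CPM at 30 µg/kg (97.8 to 163).

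The spread of this sum between mice was set against each of the 9 members across the 27 mice (log2 scale, 9 relations, permutation tests with 100000 draws, two-sided). The draws shuffled mice freely across dose groups and index uses. Their p-values therefore do not measure a relation between mice of the same dose. *Ighm* followed it with Pearson's r = 0.974 and Spearman's rho = 0.946 (permutation p = 1e-05 for both, the smallest these draws can give, adjusted p = 9e-05), r = 0.966 without the 2 mice farthest from the median, and r = 0.980 and 0.986 inside the first and second index use. As naive B cells express *Ighm* too, this relation was likely beforehand, and its p-value is only a description. *Irf4* gave r = 0.521 (permutation p = 0.00534, adjusted 0.024) and rho = 0.451 (permutation p = 0.0191, adjusted 0.086), with r = 0.505 without the 2 farthest mice and 0.747 and 0.722 inside the uses. For *Jchain* r was -0.032 (permutation p = 0.873, adjusted 0.886; rho = -0.069, permutation p = 0.732, adjusted 0.824), for *Igha* -0.078 (permutation p = 0.700, adjusted 0.886; rho = -0.156, permutation p = 0.437, adjusted 0.824), and for *Mzb1* 0.298 (permutation p = 0.131, adjusted 0.394; rho = 0.334, permutation p = 0.0904, adjusted 0.271), with r of 0.447 and 0.439 and rho of 0.544 and 0.418 inside the uses. The other 4 members had r between -0.096 and 0.159 with adjusted p of 0.886.

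**Figure D5:**
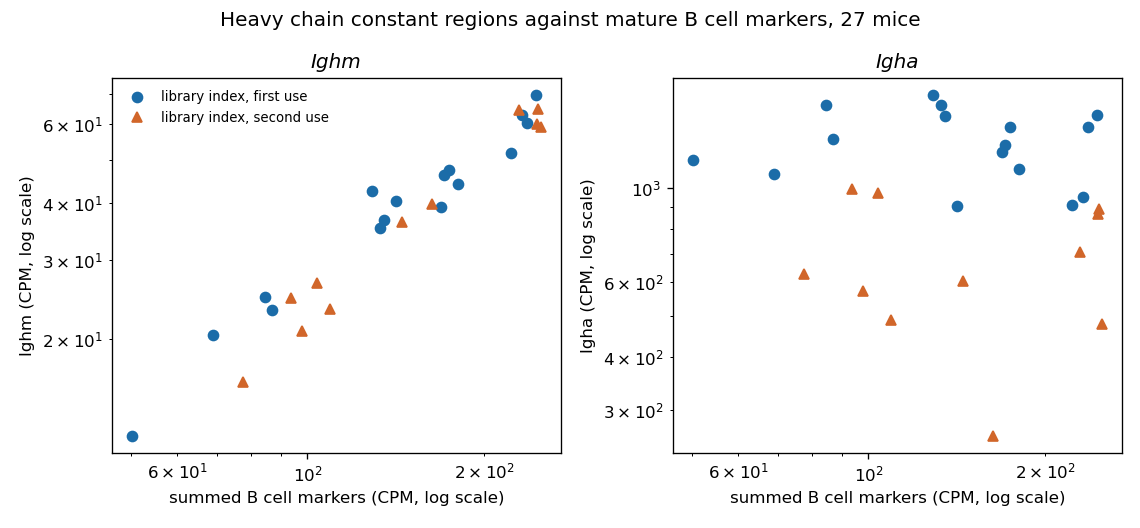
Level of *Ighm* (left) and *Igha* (right) against the summed level of 14 mature B cell markers in each of 27 mice (CPM, log scales); circles are libraries of the first index use and triangles of the second. *Ighm* rises along the sum in both uses (r = 0.974 over 27 mice), whereas *Igha* does not (r = -0.078).

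Signals that direct B cells to IgA, bring them to the gut or keep plasma cells alive were 17 genes. Of these, 14 were tested and 1 was called at 30 µg/kg, beside 9.4% of all genes. An unadjusted p under 0.05 was found for 3 (edgeR), beside 5230 of all 16741 genes. *Tnfsf13b*, which encodes the survival factor BAFF, fell from 6.94 ± 1.33 to 3.43 ± 0.798 CPM (SD, n = 3, log2 -1.02 ± 0.25 SE, edgeR adjusted p = 0.00580). Its level at 3 µg/kg, inside the second index use, was 4.48 ± 0.275 CPM. At 30 against 3 µg/kg 0 of the 14 genes were called, with 1 at an unadjusted p under 0.05, beside 2250 of all 16741 genes. *Tnfsf13*, encoding APRIL, the ligand of BCMA, was at 0.32 ± 0.30 (edgeR adjusted p = 0.499), and *Ccl28*, an epithelial chemokine that attracts IgA plasma cells, at 0.24 ± 0.19 (adjusted p = 0.406). Neither passed the test.

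Of 19 genes that induce *Pigr* or encode other immunoglobulin receptors, 14 were tested and 2 were called lower at 30 µg/kg, beside 9.4% of all genes. In this list 8 of 14 had an unadjusted p under 0.05 (edgeR), beside 5230 of all 16741 genes, and the median log2 fold change was -0.155. At 30 against 3 µg/kg 0 of 14 were called, with 2 at an unadjusted p under 0.05, beside 2250 of all 16741 genes. *Il4ra*, the receptor chain for IL-4 and IL-13, fell from 117 ± 3.56 to 63.8 ± 9.16 CPM (SD, n = 3, log2 -0.88 ± 0.15 SE, edgeR adjusted p = 0.000303), and *Tlr4*, the lipopolysaccharide receptor, from 4.96 ± 0.858 to 1.99 ± 0.719 CPM (log2 -1.31 ± 0.30, edgeR adjusted p = 0.00362). *Fcgrt*, encoding the neonatal Fc receptor that carries IgG, was at 0.10 ± 0.14 (edgeR adjusted p = 0.667). In these same mice the log2 fold change of *Pigr* was -0.08 ± 0.11.

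Markers of other cells were set beside these values, with 9.4% of all genes called at 30 µg/kg. An unadjusted p under 0.05 was found there for 5230 of all 16741 genes (edgeR). Of 12 T lymphocyte markers 0 were called at 30 µg/kg by edgeR or DESeq2 (2 at an unadjusted p under 0.05), with a summed level of 234 to 271 CPM in vehicle and 170 to 270 CPM at 30 µg/kg. Of 11 smooth muscle and stromal markers 0 were called by edgeR or DESeq2 (3 at an unadjusted p under 0.05), with 102 to 262 and 103 to 426 CPM. Of 12 macrophage and dendritic cell markers 2 were lower, *Itgam* (log2 -1.78 ± 0.19 SE, edgeR adjusted p = 1.98e-06) and *Cd14* (-0.83 ± 0.25, adjusted p = 0.0222), and the sum was 127 to 159 CPM in vehicle and 93.4 to 124 CPM at 30 µg/kg. In this list 3 had an unadjusted p under 0.05 (edgeR), and *Itgam* was also called lower at 30 against 3 µg/kg. Of 9 enterocyte markers tested, *Slc10a2* rose (log2 0.75 ± 0.24, edgeR adjusted p = 0.0340) and *Fabp6* fell (-0.94 ± 0.25, adjusted p = 0.0120), both with overlapping groups, and the sum was 12470 to 13620 CPM in vehicle and 10150 to 16600 CPM at 30 µg/kg. Among these 9 markers 5 had an unadjusted p under 0.05 (edgeR), and 0 were called at 30 against 3 µg/kg. The part of these cells in the levels of the antibody genes was not tested.

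Genes whose levels ran most like those of *Jchain* over the 27 mice were ranked by Spearman's rho of log2 CPM, as a description of mice that share doses, depth and index use. Among the 20 nearest genes were 4 immunoglobulin genes, the highest at 0.976. The nearest others were *Tfam*, a mitochondrial transcription factor (rho = 0.883, r = 0.862 and 0.814 without the 2 farthest mice), *Tmpo*, which encodes a nuclear lamina protein (0.854, r = 0.814), *Rrm1*, a ribonucleotide reductase subunit (0.848, r = 0.886), *Mycl* (0.842, r = 0.735) and *AY761184* (0.842, r = 0.866). Inside the first and second index use, rho with *Tfam* was 0.741 and 0.773, and with *Mycl* 0.674 and 0.364. The genes nearest to *Pigr* were *Reps2* (rho = 0.790, r = 0.739), the organic anion transporter gene *Abcc3* (0.784, r = 0.791), the choline transporter gene *Slc44a1* (0.770, r = 0.759), *Ms4a18* (0.720, r = 0.567) and *Tep1* (0.705, r = 0.617), and 0 of its 20 nearest genes were immunoglobulin genes. Between *Pigr* and *Jchain* themselves rho was 0.085, and *Irf4* and *Mzb1* stood at 0.755 and 0.753 with *Jchain*.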

How the data were processed

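RNA-Seq libraries of ileal epithelium from 27 male mice (3 per group, 9 groups) were prepared with the NuGen Ovation Mouse RNA-Seq kit. Per the submitters' processing notes and the methods, the authors checked reads with FastQC 0.11.3, trimmed them with Trimmomatic 0.33, aligned them to GRCm38 with TopHat2 2.1.0, converted alignments with SAMtools 1.2.0 and counted with HTSeq 0.6.1. The authors deposited the raw, unscaled read counts of each mouse on Ensembl genes. Rows that name no gene were left out of library sizes; no-feature reads were 44.5 to 49.5% of the reads listed on genes, ambiguous or on no feature. Each of the 27 pairs of mice within a group differed beyond sampling noise (chi-square per degree of freedom 6.99 to 74.26). Groups came from the labels, whose mouse numbers pair no samples.

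Counts were fitted with edgeR 4.0.16 (R 4.3.3) after filterByExpr (minimum count 10, minimum total 15; 16741 genes) and TMM, with a quasi-likelihood fit of 9 groups. Calls required an adjusted p of at most 0.05 (Benjamini-Hochberg, all genes, within a comparison) and a fold of at least 1.5, the study's fold limit; its P1(*t*) could not be recomputed from its description. SE is the absolute log2 fold change divided by the square root of F. CPM used TMM library sizes, log2 CPM a prior count of 2, and RPKM the union of exons (GENCODE M21); marker sums were used as log2(sum + 1). The procedure was tested on simulated data. Cages were not known, and tests treat mice as independent. Python 3.11.15, pandas 2.3.3, scipy 1.17.1, numpy 2.4.6 and matplotlib 3.10.9 were also used. Alternatives were DESeq2 1.42.0, other scalings (upper quartile, library size only, 396 immunoglobulin genes left out), other filters, no fold limit, only the mice compared, index use as a covariate, counts not divided by length and leaving out each mouse.

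The members and the 10 other gene lists were chosen with earlier results of these data known. Beside the members, the text names up to 5 genes per list with the largest change among those called at 30 µg/kg, the preset genes *Xbp1*, *Pou2af1*, *Cd79a*, *Ms4a1*, *Tnfsf13*, *Ccl28*, *Fcgrt* and *Cyp1a1* (1 further preset gene is not reported here), and the 5 genes most like *Jchain* and *Pigr*; *Ighd* and *Ighe* were named after their values were seen. The AhR target list (6 of 7 tested, 5 called higher at 30 µg/kg) checks the treatment and is otherwise not described. Promoter windows are from RefSeq; none is shown for the constant regions or *Mzb1*.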

Additional observations from a re-analysis of the deposited data

How the results depend on the processing

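The members called at 0.01 to 3 µg/kg against vehicle and at 10 against 3 µg/kg were 0 under each of the alternatives run. At 10 µg/kg (4 called) the count was 0 with index use as a covariate, 4 or 5 under the other 8 settings, and 0 to 5 when 1 mouse was left out. At 30 µg/kg (5 called) it was 3 in a fit of only the 6 mice compared, 0 with the covariate, 5 under the other 7, and 4 to 5 without 1 mouse. At 30 against 3 µg/kg (0 called) it was 3 by DESeq2, 3 with no filter on low counts, 1 with the covariate, 0 under the other 6, and 0 to 4 without 1 mouse. The causes were not tested; the covariate is informed by 1 and 2 mice at 1 µg/kg. No fold change that had been called reversed in sign. Over all genes, the 1574 called at 30 µg/kg ranged from 482 (covariate) to 2976 (no fold limit), and from 871 to 2473 without 1 mouse; the 423 at 10 µg/kg from 48 to 636, the 185 at 3 µg/kg from 6 to 344, the 99 at 1 µg/kg from 31 to 169, the 149 at 30 against 3 µg/kg from 14 to 257 and the 7 at 10 against 3 µg/kg from 6 to 32, while the 0 at 0.01, 0.03, 0.1 and 0.3 µg/kg became at most 3, 5, 8 and 31. With the covariate, the other immunoglobulin constant regions called at 30 µg/kg numbered 2 in place of 5, the other plasma cell genes 1 in place of 2, the survival signals 0 in place of 1, the *Pigr* pathway genes 1 in place of 2 and the enterocyte markers 0 in place of 2. Depth limits *Tnfrsf17* (0 to 10 counts per mouse), *Ighg2c* and *Mzb1*. No paired analysis was possible because the mouse numbers in the labels tie no mouse to one of another group.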
